A study of Mus musculus with 6 samples.

Results

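The 46 protein-coding genes whose symbol begins with Nduf were followed in white fat of the mouse groin, the inguinal depot under the skin. All but Ndufa4 and Ndufa4l2 encode subunits or assembly factors of respiratory complex I, 36 subunits and 8 factors. The genes were chosen by symbol alone, from 24415 rows of a table of read counts per gene, and all 46 passed the filter on low counts. The study sequenced RNA from 3 samples labelled Hsp20 KO and 3 labelled WT, all from C57BL/6 mice aged 12 weeks that had not been fasted. Nothing in the labels says that the samples of a group came from separate animals, so p-values measure only the spread between these samples, which may be technical. The gene for Hsp20, a small heat shock protein, is Hspb6. The sources used here do not give which part of it the knockout allele lacks, whether it is lacking in all tissues, or the sex of the mice. Library totals ran from 14078936 to 27937060 counts in the libraries labelled knockout and from 26146472 to 32648746 in WT. Hspb6 itself stood at 8.86, 1.51 and 3.94 CPM (counts scaled to library size, with TMM factors) in the libraries labelled knockout replicates 1 to 3, against 12.6, 9.43 and 8.95 CPM in WT. The library labelled knockout replicate 1 therefore lay close to WT for the targeted gene (log2 change over all 6 libraries -1.08, edgeR adjusted p = 0.227), and every direction below is that of the labels.

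Complex I is the largest enzyme of the respiratory chain and the main entry point for electrons from NADH. It has a matrix arm, where NADH is oxidised at a flavin and electrons pass along iron-sulfur clusters to ubiquinone, and a membrane arm that pumps protons. The catalytic core of the matrix arm is encoded in the nucleus and that of the membrane arm in mitochondrial DNA; around the core sit accessory subunits, and assembly factors build the enzyme but leave it when it is complete. Brown and beige fat cells hold far more mitochondria than white ones, so respiratory chain transcripts are abundant there. The mitochondrially encoded subunits and Ndufb1 were not analysed here.

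Most complex I transcripts were modestly higher in the libraries labelled knockout. Of the 46 genes, 23 rose and 0 fell (edgeR quasi-likelihood test, Benjamini-Hochberg adjusted p under 0.05 over 15994 genes), by between 1.25-fold and 1.71-fold. By the unadjusted p under 0.05, 41 were higher and 1 lower, beside 13.3% and 12.7% of all genes, and DESeq2 called 34 higher and 0 lower, beside 7.1% and 6.41% of all genes. The called share was 50%, beside 4.23% of all tested genes called higher and 3.42% called lower. The median log2 change of the 46 was 0.44, beside 0.00061 over all tested genes, and the change was above 0 in 45 of 46, beside 50.1% of all genes. The groups did not overlap in 43 genes: 42 lay higher in all 3 libraries labelled knockout, 91.3% of the genes beside 16.9% of all genes, and 1, Ndufaf7, lay lower, beside 15.6% of all genes. An earlier look at the same libraries had already shown the respiratory chain to be higher, so these counts describe the genes and add no independent support. The number called depended on single libraries: 0 passed without WT replicate 2 or WT replicate 3 (38 and 40 higher, and 1 lower in each, at an unadjusted edgeR p under 0.05; 0.488% and 0.464% of all genes were then called higher). The count was 4 without WT replicate 1 or without the library labelled knockout replicate 2 (2% of all genes in each), 6 without the one labelled replicate 3, and 36 without the one labelled replicate 1, beside 2.01% and 5.82% of all genes in the last 2 fits. The median log2 change stayed between 0.37 and 0.54 in those 6 fits.

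The libraries labelled knockout differed more among themselves than the WT libraries did. Summed over the 46 genes, the level was 3172 CPM in the library labelled replicate 1, 3754 in replicate 2 and 4159 in replicate 3, against 2571, 2645 and 2656 CPM in WT replicates 1 to 3. Each gene's level was set against its WT mean, and the median over the 46 genes was 0.25, 0.47 and 0.62 on the log2 scale in the libraries labelled knockout and -0.045, 0.013 and 0.014 in WT. The library labelled replicate 1 was the lowest of its group in 43 genes and that labelled replicate 3 the highest in all 46, yet replicate 1 still lay above every WT library in 43 genes. The coefficient of variation between libraries had a median of 12.8% in the knockout group and 5.28% in WT, and it was larger in the knockout group for 39 genes. Hspb6 was also nearest to WT in the library labelled replicate 1. The library labelled replicate 3 was the smallest in total counts, at 14078936. With every library thinned at random to that total, 22 genes were called higher, beside 3.3% of all genes, and the median log2 change was 0.45.

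**Figure D1:**
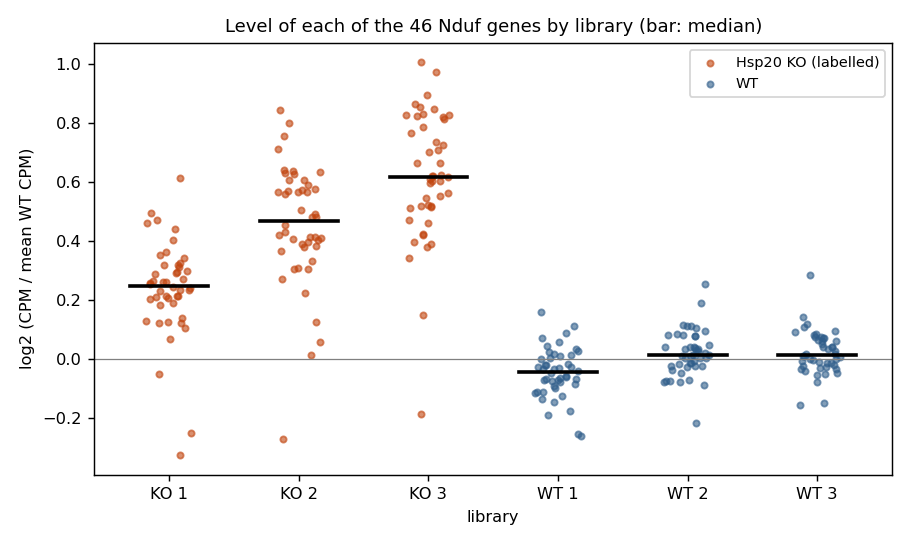
Level of each of the 46 genes in each library, as log2 of its CPM over its mean WT CPM; each point is a gene and the bar is the median. The medians are 0.25, 0.47 and 0.62 in the 3 libraries labelled Hsp20 KO, and the WT medians lie between -0.045 and 0.014; the lowest points among the libraries labelled knockout include Ndufaf7 and, in replicate 1, Ndufa4l2.

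Markers of thermogenic fat and blood also moved with genotype, and their part in the result was not tested. Of 7 thermogenic fat cell markers, 6 rose, beside 4.23% of all genes, and none was at 0. Their sum was 224, 639 and 751 CPM in the libraries labelled knockout replicates 1 to 3, against 113, 80.5 and 73.4 CPM in WT. Ucp1, the uncoupling protein of thermogenic fat, had 19.1, 165 and 308 CPM in the libraries labelled knockout and 2.64, 1.76 and 1.06 CPM in WT. Both the thermogenic sum and the sum over the 46 Nduf genes were thus lowest of their group in the library labelled replicate 1. The 5 rows of blood transcripts fell, beside 3.42% of all genes. However, Hba-a1 and Hba-a2 hold the same values in 5 of 6 libraries and differ by 0.06 CPM in the other, so they are one measurement. With alpha globin counted once, the sum of the 4 lay between 2617 and 3170.3 CPM in the libraries labelled knockout, against 5841 to 6727 CPM in WT. Skeletal muscle, whose fibres are rich in mitochondria, gave 0 calls among 9 markers, but the sum was 806 CPM in WT replicate 1 and between 61.3 and 132 CPM in the other 5 libraries, with no marker at 0 over all libraries. All 9 muscle markers had negative changes, with a median log2 change of -3.55. Of them 1, Acta1, lay lower without overlap (log2 change -1.04, edgeR adjusted p = 0.153), beside 15.6% of all genes. In the summed level of the 46 Nduf genes WT replicate 1 was the lowest library, and without it their median log2 change was 0.42. The part of muscle in the result was not tested. Fat cell markers, which check the tissue label, were abundant in every library: the sum of 7 lay between 12183 and 17128 CPM in the libraries labelled knockout, against 11709.6 to 14411 CPM in WT, with 0 called. Their changes were mixed, with 4 of 7 above 0. Of them 2, Plin1 and Lipe, lay higher without overlap, beside 16.9% of all genes (log2 changes 0.36 and 0.35, edgeR adjusted p = 0.186 and 0.206). The sums of 6 macrophage markers lay between 980.3 and 1275 CPM in the libraries labelled knockout, against 1163 to 1315 CPM in WT, those of 4 B cell markers between 330.2 and 672 CPM in the libraries labelled knockout, against 489 to 534 CPM in WT, and those of 4 T cell markers between 182 and 269 CPM in the libraries labelled knockout, against 173 to 208 CPM in WT. Sums of 3 endothelial markers lay between 539 and 628 CPM in the libraries labelled knockout, against 618 to 666 CPM in WT, and of 4 progenitor markers between 457 and 760.3 CPM in the libraries labelled knockout, against 683 to 834 CPM in WT. None of these 21 was called. All 6 macrophage markers had negative changes, and 2 lay lower without overlap, beside 15.6% of all genes. These were Itgam and Adgre1 (log2 changes -0.63 and -0.55, edgeR adjusted p = 0.0505 and 0.113). All B cell, endothelial and progenitor markers also had negative changes and all T cell markers positive ones, each with overlap. Epithelial markers were scarce, with Krt5 and Krt14 below the count filter, the other 3 not called and a sum of at most 3.25 CPM. In bulk tissue, more cells of a type and more RNA per cell cannot be told apart.

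Ndufa10, Ndufs1, Ndufab1 and Ndufv1 had the largest rises of the 46, and Ndufaf7 was the one gene with a negative change. The stretch before the start used in the RefSeq promoter table (GRCm38.p6) is shown for Ndufa10, Ndufab1 and Ndufv1, as the members with the largest rise that have an entry there, and for Ndufaf7, which went the other way. Each is the 250 bases before that start, read on the gene's own strand, with capitals where a searched motif matches on either strand. The RefSeq gene span begins further out for a pair of them, so that the last 67 bases shown for Ndufa10 and the last 29 for Ndufaf7 lie inside the annotated gene.
Ndufa10: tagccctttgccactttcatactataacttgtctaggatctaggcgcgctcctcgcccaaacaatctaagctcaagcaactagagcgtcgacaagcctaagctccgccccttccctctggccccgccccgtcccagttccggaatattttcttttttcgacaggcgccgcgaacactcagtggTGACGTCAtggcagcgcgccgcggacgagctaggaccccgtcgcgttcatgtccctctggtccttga
Ndufab1: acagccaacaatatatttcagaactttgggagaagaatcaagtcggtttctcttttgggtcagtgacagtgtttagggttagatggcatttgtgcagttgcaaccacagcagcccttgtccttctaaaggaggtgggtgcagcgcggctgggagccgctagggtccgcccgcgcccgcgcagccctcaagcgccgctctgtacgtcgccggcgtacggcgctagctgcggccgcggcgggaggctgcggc
Ndufv1: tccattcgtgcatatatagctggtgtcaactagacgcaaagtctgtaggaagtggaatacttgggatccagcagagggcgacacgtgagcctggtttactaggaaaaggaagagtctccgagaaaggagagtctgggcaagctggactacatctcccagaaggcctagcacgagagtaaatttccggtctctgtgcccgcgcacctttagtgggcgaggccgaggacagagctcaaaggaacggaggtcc
Ndufaf7: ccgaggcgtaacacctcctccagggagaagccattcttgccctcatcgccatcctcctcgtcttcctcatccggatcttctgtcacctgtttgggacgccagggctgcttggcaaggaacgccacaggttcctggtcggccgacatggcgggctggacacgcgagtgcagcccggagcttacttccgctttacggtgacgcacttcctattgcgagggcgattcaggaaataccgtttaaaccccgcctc
These lie at chr1:92473759-92474008 (minus strand), chr7:122101849-122102098 (minus), chr19:4012756-4013005 (minus) and chr17:78936885-78937134 (plus). In capitals for Ndufa10 is a single palindrome that matches TGACGT, the core of the cyclic AMP response element, on both strands; it lies within those last 67 bases, at the edge of the gene span. The other 3 stretches hold no match. Windows from 250 bases before to 50 after the start were available for 40 of the 46 genes, and for 20 of the 23 that rose. The cyclic AMP element core was found in 4 of the 40, 10%, beside 12.1% of 11777 tested protein-coding genes with a window and 7.51% of all 32851 windows. AAGGTCA, the half-site bound by estrogen-related receptors, was in 3 of 40 (7.5%, beside 4.05% of tested coding genes and 4.72% of all windows). GCATGCG, a core of the NRF1 site, was in 5 (12.5%, beside 6.56% and 3.58%). CCGGAAG, a core of ETS factor sites, was in 6 (15%, beside 17.8% and 8.86%), and AAGATGG, a core of the YY1 site, in 8 (20%, beside 7.96% and 6.34%). Of the genes with a match, those that rose were 4 of 4 for the cyclic AMP element, 1 of 3 for the estrogen-related receptor half-site, 3 of 5 for NRF1, 3 of 6 for ETS and 2 of 8 for YY1, beside 20 of the 40 with a window. All were searched on both strands, and none of the 5 motifs contains another. A match describes the letters only, and no match says nothing of the factor.

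The core of the NADH-oxidising module rose in full, 3 of 3 genes, with a median log2 change of 0.62. For this and each role group below, the share of all tested genes called higher was 4.23%. Ndufs1, the large subunit that carries iron-sulfur clusters (chromosome 1, 63143592 to 63176822 on GRCm38), had 178, 229 and 264 CPM in the libraries labelled knockout replicates 1 to 3, against 135, 132 and 127 CPM in WT. The groups did not overlap, and the lowest value among the libraries labelled knockout, in replicate 1, was well above the highest WT value (log2 change 0.77 ± 0.14 SE, edgeR adjusted p = 0.0226). Ndufv1, which binds NADH and the flavin, had 169, 218 and 230.2 CPM in the libraries labelled knockout and 140.3, 134 and 127 CPM in WT, a 1.54-fold rise (edgeR adjusted p = 0.0279). Its partner Ndufv2, which carries a further iron-sulfur cluster, had 102, 126 and 138 CPM against 79.3, 86.8 and 88.4 CPM in WT (log2 change 0.52, edgeR adjusted p = 0.0417). In all 3 genes the library labelled replicate 1 was the lowest of its group.

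In the core of the ubiquinone-reducing module, Ndufs3 and Ndufs7 rose and Ndufs8 did not pass. Ndufs3, a scaffold at the start of matrix arm assembly, had 103, 123 and 135 CPM in the libraries labelled knockout and 89.3, 85.5 and 88.4 CPM in WT (edgeR adjusted p = 0.0416). Ndufs7, which holds the last iron-sulfur cluster before ubiquinone, had 65.8, 80.5 and 80.9 CPM in the libraries labelled knockout and 55.6, 58.4 and 56.3 CPM in WT (edgeR adjusted p = 0.0431). Ndufs8, another iron-sulfur subunit, had 51.3, 58.2 and 64.7 CPM against 46, 43.5 and 43.3 CPM in WT; its groups did not overlap, but it stood just outside the threshold (log2 change 0.39 ± 0.10 SE, edgeR adjusted p = 0.0515). Ndufc2, a subunit of the membrane arm, stood just inside it, with 77.1, 81.5 and 90.7 CPM in the libraries labelled knockout and 57.3, 67.1 and 65.5 CPM in WT (edgeR adjusted p = 0.0487).

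**Figure D2:**
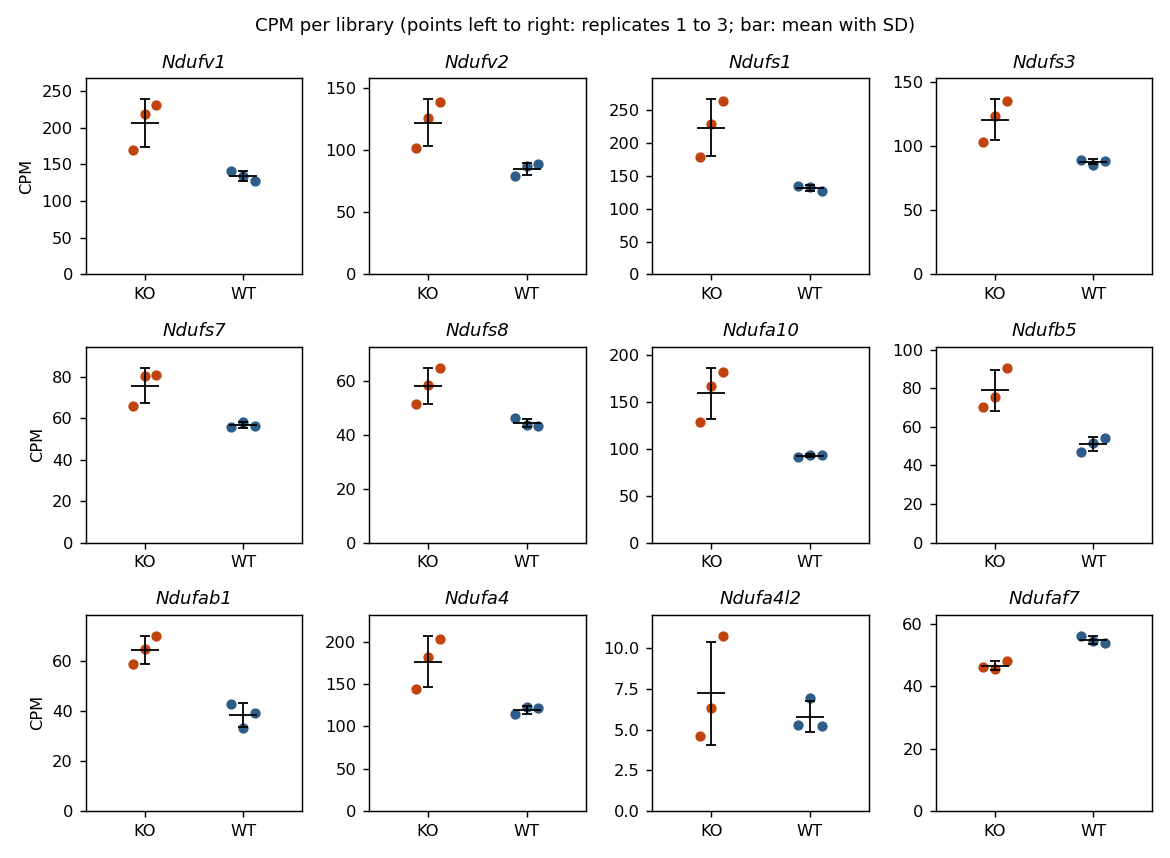
CPM of 12 of the genes in each library, with the libraries labelled Hsp20 KO left of WT in each panel; points are replicates 1 to 3 from left to right, and the bar and whiskers are the mean and SD (n = 3 each). The groups are apart in every panel except Ndufa4l2, and Ndufaf7 alone lies lower in the libraries labelled knockout.

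Accessory subunits of the matrix arm rose in 4 of 9 genes, with a median log2 change of 0.42, and all 9 lay higher without overlap. Ndufs4, needed to finish the NADH-oxidising module, had 68.4, 84.7 and 98.6 CPM in the libraries labelled knockout and 51.9, 53.6 and 58.3 CPM in WT (log2 change 0.62, edgeR adjusted p = 0.0359). Ndufa5 had 33.3, 35.1 and 35.8 CPM against 20.7, 25.4 and 24.9 CPM in WT; the libraries labelled knockout lay within 3 CPM of each other (log2 change 0.55 ± 0.10 SE, edgeR adjusted p = 0.0214). Ndufa6 and Ndufa12 rose 1.42-fold and 1.45-fold. The 5 that did not pass were Ndufa9, Ndufs6, Ndufv3, Ndufa2 and Ndufa7, with log2 changes of 0.42, 0.40, 0.34, 0.29 and 0.27.

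Accessory subunits of the proximal membrane arm rose in 5 of 9 genes, with a median log2 change of 0.53. Ndufa10, a subunit related to nucleoside kinases (chromosome 1, 92439486 to 92473825), had 129, 167 and 182 CPM in the libraries labelled knockout replicates 1 to 3, against 91.1, 93.9 and 94.1 CPM in WT. The WT libraries lay within 3 CPM of each other and the libraries labelled knockout were spread far more widely, all of them higher (log2 change 0.78 ± 0.13 SE, edgeR adjusted p = 0.0167). The palindromic cyclic AMP element core shown above lies at the edge of this gene's span. Ndufa8, Ndufa11 and Ndufc2 rose 1.52-fold, 1.45-fold and 1.31-fold. Ndufa13, also known as the cell death regulator GRIM-19, had the smallest rise that passed, 1.25-fold, with 99.1, 103 and 109 CPM in the libraries labelled knockout and 83.2, 83.3 and 82.5 CPM in WT. Both groups were tight for Ndufa13, and this small change passed (edgeR adjusted p = 0.0359). Ndufa1, Ndufa3 and Ndufc1 did not pass (log2 changes 0.42, 0.30 and 0.53). Ndufs5 did not pass either (log2 change 0.57 ± 0.16 SE, edgeR adjusted p = 0.0721), and its level is uncertain: the transcribed pseudogene Ndufs5-ps held 109 CPM in the libraries labelled knockout and 74 CPM in WT, above the 58.7 and 39.5 CPM of the gene itself. With both rows summed the log2 change was 0.56.

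Accessory subunits of the distal membrane arm, the Ndufb genes, rose in 6 of 10, with a median log2 change of 0.45, and all 10 lay higher without overlap. Ndufb5 had 70.3, 75.6 and 90.7 CPM in the libraries labelled knockout and 47.2, 51.8 and 54.5 CPM in WT, the largest rise of the family (log2 change 0.62 ± 0.11 SE, edgeR adjusted p = 0.0219). Ndufb6, Ndufb9, Ndufb7 and Ndufb11 rose 1.51-fold, 1.45-fold, 1.33-fold and 1.32-fold. Ndufb2 had 26.4, 26.5 and 29.5 CPM in the libraries labelled knockout, with replicates 1 and 2 nearly equal, and 20.2, 20.4 and 19.3 CPM in WT (edgeR adjusted p = 0.0214). Ndufb10 had the smallest change of any subunit, 0.26 ± 0.09 SE on the log2 scale, with 81.6, 81.1 and 88 CPM in the libraries labelled knockout and 63.7, 75.3 and 69.6 CPM in WT (edgeR adjusted p = 0.102). Its groups still did not overlap, and it is one of 3 genes in which the library labelled replicate 1 was not the lowest of its group. Ndufb3, Ndufb4 and Ndufb8 did not pass (log2 changes 0.36, 0.44 and 0.58).

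Ndufab1, the mitochondrial acyl carrier protein, sits in both arms of the enzyme and also serves mitochondrial fatty acid synthesis. It had 58.5, 64.7 and 69.6 CPM in the libraries labelled knockout and 42.8, 33 and 39.2 CPM in WT. WT replicate 2 was the lowest library and the groups were far apart (log2 change 0.75 ± 0.11 SE, edgeR adjusted p = 0.0146, the smallest p of the 46). Ndufab1 and Ndufa10 were the only genes still called in each of the 4 fits that left out WT replicate 1 or 1 library labelled knockout. Ndufab1, Ndufc2 and Ndufa3 lie on chromosome 7 with Hspb6, at 91.5, 66.8 and 26.9 Mb from it. Ndufa3 did not pass (log2 change 0.30).

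A pair of genes carry the name but are not part of complex I. Ndufa4, since reassigned to cytochrome c oxidase, rose 1.47-fold, with 144, 182 and 204 CPM in the libraries labelled knockout and 114, 123 and 122 CPM in WT (edgeR adjusted p = 0.0415). Its paralogue Ndufa4l2, known as a hypoxia-induced gene, had 4.63, 6.32 and 10.8 CPM in the libraries labelled knockout and 5.28, 6.92 and 5.2 CPM in WT. These groups overlapped, and the library labelled replicate 3 was the highest of the 6 (log2 change 0.29 ± 0.30 SE, edgeR adjusted p = 0.586). Without that library the log2 change of Ndufa4l2 was -0.082.

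**Figure D3:**
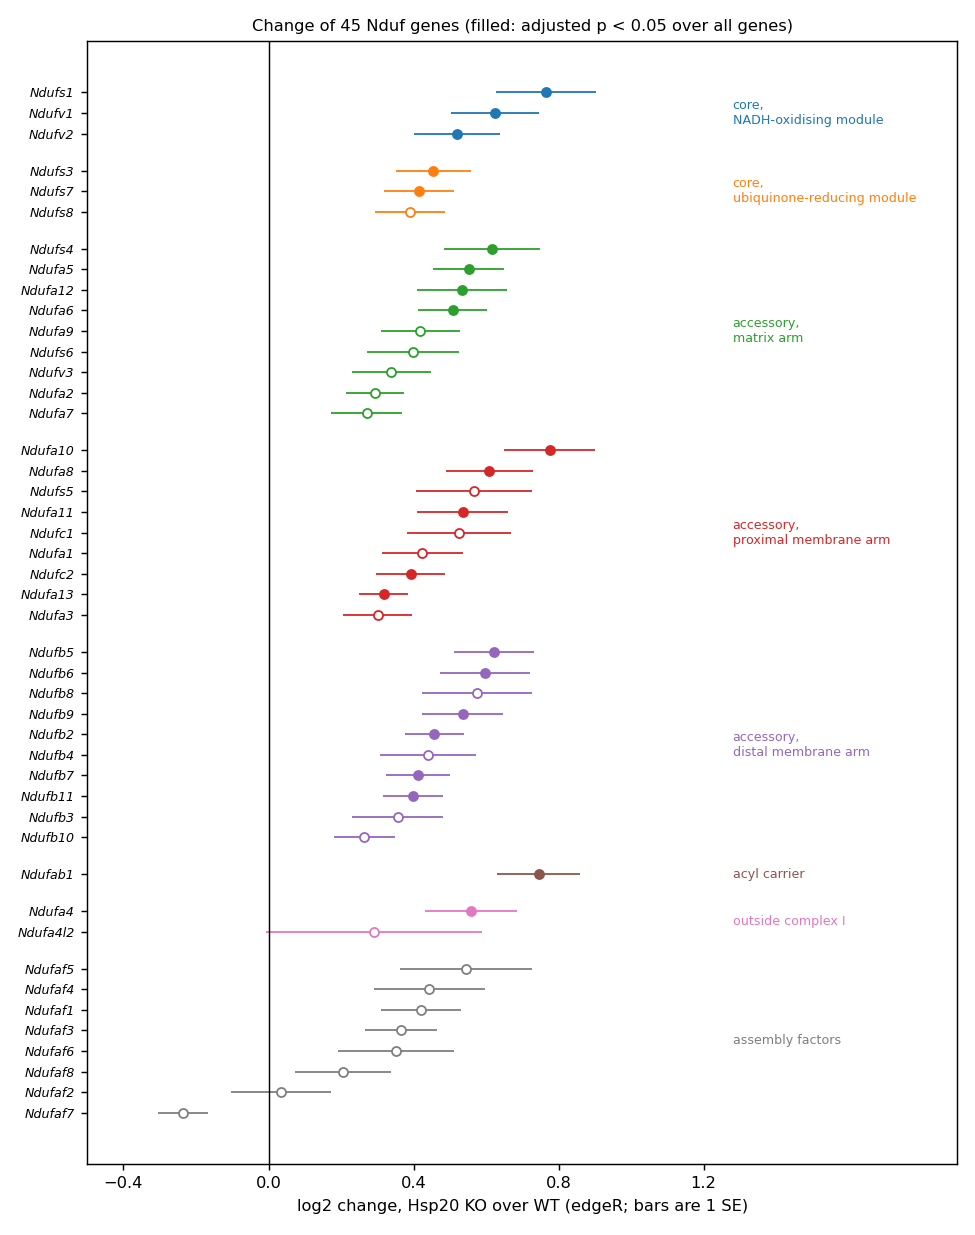
Log2 change of 45 of the 46 genes, Hsp20 KO over WT, by role, with bars of 1 SE from edgeR; filled points passed an adjusted p of 0.05 over all genes. Of the 35 subunits drawn 21 are filled, and all 8 assembly factors are open, with Ndufaf7 alone left of 0.

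The 8 assembly factors gave 0 calls in either direction (edgeR; at an unadjusted p under 0.05, 4 were higher and 1 lower). Their median log2 change was 0.36, beside 0.48 for the 36 subunits, of which 22 rose; the spread of log2 changes was wider among the factors (SD 0.26 over 8 genes) than among the subunits (SD 0.13 over 36). Some of them had low counts: the smallest count of any of the 46 genes, 67, was that of Ndufaf6 in the library labelled replicate 3. The part of low counts in the lack of calls was not tested. Ndufaf1, which helps to build the membrane arm, had 21.7, 24.4 and 27.8 CPM in the libraries labelled knockout and 17.2, 18.5 and 19.3 CPM in WT, apart but not passing (log2 change 0.42 ± 0.11 SE, edgeR adjusted p = 0.0591). Ndufaf5, Ndufaf4, Ndufaf3 and Ndufaf6 also lay higher without overlap, with log2 changes of 0.55, 0.44, 0.37 and 0.35. Ndufaf8 had 8.24, 7.56 and 9.43 CPM in the libraries labelled knockout and 6.72, 7.47 and 7.59 CPM in WT, with overlap (log2 change 0.21, edgeR adjusted p = 0.37). Ndufaf2, a chaperone related to the subunit Ndufa12, had 7.63, 7.97 and 8.76 CPM in the libraries labelled knockout and 7.57, 9.01 and 7.14 CPM in WT, fully intermingled (log2 change 0.03 ± 0.14 SE, edgeR adjusted p = 0.899).

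Ndufaf7, a methyltransferase that acts in the assembly of the matrix arm, lay lower in all 3 libraries labelled knockout (chromosome 17, 78937106 to 78948052). Its level was 46.1, 45.4 and 48.2 CPM in the libraries labelled knockout replicates 1 to 3, against 56.2, 54.5 and 53.8 CPM in WT. Each group spanned under 3 CPM, and the library labelled replicate 1 lay between the other two of its group. The change missed the threshold (log2 change -0.24 ± 0.07 SE, unadjusted p = 0.00894, edgeR adjusted p = 0.0757), and it kept its sign in all 16 alternative fits, between -0.27 and -0.22. As a share of the summed level of the 36 subunits, Ndufaf7 stood at 1.59%, 1.33% and 1.27% in the libraries labelled knockout, against 2.41%, 2.29% and 2.24% in WT. All 8 factors together came to 4.53%, 4.07% and 4.07% of the subunit sum in the libraries labelled knockout and 5.34%, 5.40% and 5.46% in WT. That share includes Ndufaf7, the highest of the 8 in CPM, and so is not separate from its change. The sum of the 8 was 131, 140 and 154 CPM in the libraries labelled knockout, against 124, 129 and 131 CPM in WT. The sum of the 36 subunits was 2893, 3426 and 3790 CPM in the libraries labelled knockout, against 2327, 2386 and 2397 CPM in WT. Both shares therefore also carry the rise of the subunits. No test was made on these ratios.

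Levels between genes were compared per kb of the longest protein-coding transcript that GENCODE M21 pairs with RefSeq, on GRCm38. Ndufa4 was the highest, with 289 CPM per kb in the libraries labelled knockout and 196 CPM per kb in WT, followed by Ndufb9 with 239.7 CPM per kb in the libraries labelled knockout and 165 CPM per kb in WT. Subunits had a median level of 91.1 CPM per kb in the libraries labelled knockout and 67.0 in WT, and assembly factors a median of 10.8 and 8.85. The ranges overlapped: the lowest subunit, Ndufab1, had 18.5 CPM per kb in the libraries labelled knockout and 11 CPM per kb in WT, and the highest factor, Ndufaf7, had 26.6 CPM per kb in the libraries labelled knockout and 31.3 CPM per kb in WT. The low value of Ndufab1 rests on a transcript of 3479 bases, the longest used for any subunit. Ndufa5, the next lowest subunit, had 39.7 CPM per kb in the libraries labelled knockout and 27.0 CPM per kb in WT. The transcript lengths are the annotation's, and the ends used in this tissue were not measured. In GENCODE 16 of the 46 genes share exon bases with another gene, 9 of the 23 that rose among them, for example Ndufb6 with Smim27 (257 bases, opposite strand) and Ndufa13 with Tssk6 (375 bases, opposite strand). The sources used here do not say whether counting used strand, so reads there may be shared.

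Of 13 tested complex I assembly factors not named Nduf, 2 rose and 0 fell, beside 4.23% and 3.42% of all genes. Their median log2 change was 0.16. Rtn4ip1 and Ecsit were the genes that rose. Rtn4ip1, a mitochondrial reductase, had 22.2, 28.6 and 28.4 CPM in the libraries labelled knockout and 18.5, 17.8 and 15 CPM in WT (edgeR adjusted p = 0.0327). Ecsit had 32.9, 35.7 and 35.2 CPM in the libraries labelled knockout and 26.9, 28.2 and 28.3 CPM in WT (edgeR adjusted p = 0.0445). Ecsit, Acad9 and Ndufaf1 act in the same assembly complex; for Acad9 the log2 change was 0.02 ± 0.07 SE (edgeR adjusted p = 0.914). Of 3 supercomplex factors 0 passed, with Cox7a2l at 0.19, Higd1a at 0.28 and Higd2a at 0.37 on the log2 scale (edgeR; at an unadjusted p under 0.05, only Higd2a was higher).

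The other respiratory complexes also held genes that rose, and no difference between complexes was tested. Over all tested genes 4.23% were called higher and 3.42% lower. Complex II rose in 3 of 4 genes (median log2 change 0.56), complex III in 8 of 9 (0.64), complex IV in 7 of 10 (0.57) and complex V in 6 of 15 (0.38), and 0 genes fell in each by the same edgeR threshold. The genes with the smallest p were Sdhb, the iron-sulfur subunit of complex II (1.49-fold), Uqcrfs1, the Rieske protein of complex III (1.58-fold), Cox5b of complex IV (1.5-fold) and Atp5k of complex V (1.37-fold). The rise was 1.64-fold for Cyc1, the cytochrome c1 of complex III, and 1.81-fold for Cox5a of complex IV. Atp5g1, which encodes a c-ring subunit of complex V, was the one gene of these 38 with a negative change (-0.14, edgeR adjusted p = 0.398). The summed level of complex III was 1362, 1695 and 1816 CPM in the libraries labelled knockout replicates 1 to 3, against 1066, 1031 and 1049 CPM in WT, again lowest of its group in the library labelled replicate 1. Other routes of electrons to ubiquinone were mixed, with 5 of 8 changes above 0: Gpd2, the mitochondrial glycerol phosphate dehydrogenase, rose 2.73-fold (edgeR adjusted p = 0.0175) and Etfdh, which passes on electrons from fatty acid oxidation, 1.8-fold, 2 of 8 genes. Gpd2 had 164, 262 and 276 CPM in the libraries labelled knockout and 110.2, 67.3 and 79.3 CPM in WT. Sqor and Chdh, which feed electrons from sulfide and choline, lay lower without overlap but did not pass (log2 changes -0.42 and -0.40, edgeR adjusted p = 0.0628 and 0.154). Of the 8 genes, 4 lay higher without overlap and 2 lower, beside 16.9% and 15.6% of all genes.

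**Figure D4:**
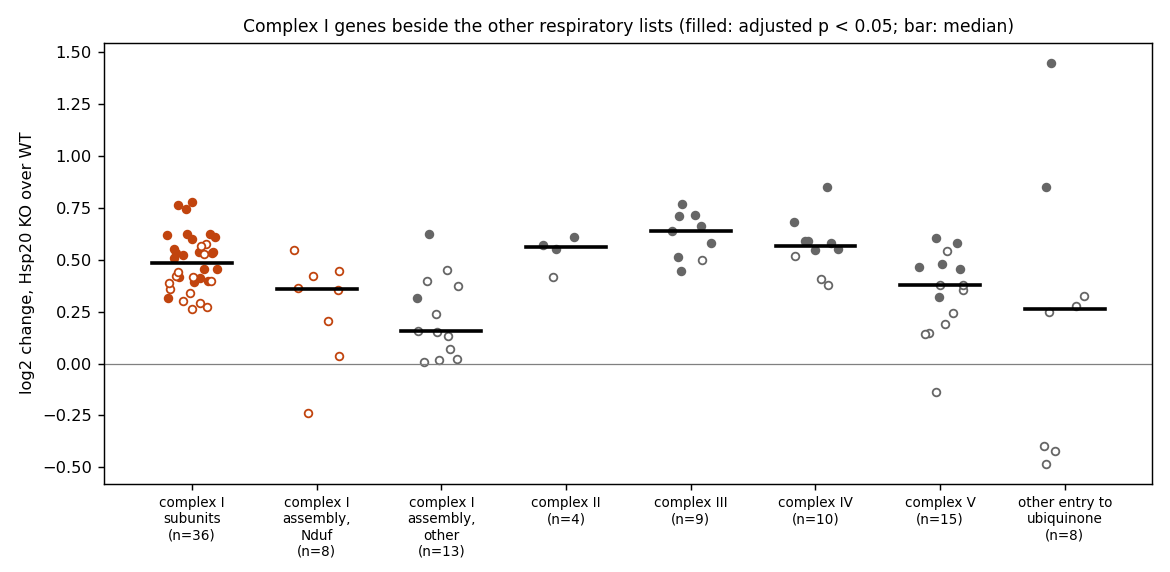
Log2 change, Hsp20 KO over WT, of each gene of complex I subunits and assembly factors and of the other respiratory lists; filled points passed an adjusted p of 0.05 and the bar is the median. Medians run from 0.16 for the assembly factors not named Nduf to 0.64 for complex III.

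Among 11 tested regulators of respiratory genes 2 rose and 0 fell, beside 4.23% and 3.42% of all genes. Esrra, the estrogen-related receptor alpha that drives many respiratory chain genes, had 61.2, 77.3 and 74.5 CPM in the libraries labelled knockout and 42.9, 44.6 and 41 CPM in WT (log2 change 0.73 ± 0.10 SE, edgeR adjusted p = 0.0113). Esrrg, a related receptor, had 2.49, 7.1 and 5.35 CPM in the libraries labelled knockout and 1.2, 1.27 and 1.24 CPM in WT (edgeR adjusted p = 0.0253). Both receptors were lowest of their group in the library labelled replicate 1. Nrf1, a nuclear regulator of respiratory genes, lay lower without overlap but did not pass, at 24.1, 25 and 24.2 CPM in the libraries labelled knockout and 30.4, 28.9 and 28.6 CPM in WT (log2 change -0.26, edgeR adjusted p = 0.0664). Yy1 also lay lower without overlap (log2 change -0.12, edgeR adjusted p = 0.338), and Tfb2m lay higher (log2 change 0.29, edgeR adjusted p = 0.0892). Of the 11 regulators, 3 lay higher without overlap and 2 lower, beside 16.9% and 15.6% of all genes. Ppargc1a, the coactivator of mitochondrial biogenesis, overlapped between groups (log2 change 0.02 ± 0.33 SE, edgeR adjusted p = 0.983), and Tfam, which maintains mitochondrial DNA, stood at 0.10 on the log2 scale (edgeR adjusted p = 0.521).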

How the data were processed

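The table that the authors deposited gives raw whole-number counts for each gene, in a column for each sample. The tools and builds named in the submitters' processing notes are bcl2fastq, CASAVA 1.8, TopHat, DESeq, mm10 and GRCm38; the sources used here do not name the counter, the annotation or a strand setting. Columns were matched by the sample names in the labels. RefSeq gene names (assembly GRCm38.p6) were found for 24334 of the 24415 IDs, and the other 81 rows held between 1.30% and 5.74% of a library.

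The test, run on all genes, was edgeR's quasi-likelihood F test (edgeR 4.0.16, R 4.3.3) with genotype as the only term, TMM normalization, edgeR's filter on low counts (at least 10 counts, 15 in total) and Benjamini-Hochberg adjustment, with a threshold of 0.05. The SE is that implied by the F statistic. The script was tested on simulated data. Alternatives were DESeq2 1.42.0, limma 3.58.1 (voom), other normalizations, filters and thresholds, robust dispersions, a replicate block, each library left out and, chosen after seeing the data, thinning and summing Ndufs5 with its pseudogene. Libraries of a group were not copies of one library: their counts differed by a chi-square of at least 17.9 per degree of freedom. This comparison cannot tell whether they came from separate animals. Figures were drawn with matplotlib 3.10.9.

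The 46 genes, the lists and the tests were chosen with earlier results of these data known. Values in every library are given for the core subunits (1 of which is not reported here), Ndufab1, Ndufa4, Ndufa4l2, Ndufaf1, the 4 largest and 4 smallest changes, the 3 smallest p, the genes nearest the threshold and those whose groups overlap. Of other lists, up to 3 genes with the smallest p are named; further examples were chosen after their values were seen.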

Additional observations from a re-analysis of the deposited data

How the results depend on the processing

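The 23 Nduf genes called higher were 22 complex I subunits and Ndufa4. That count, the 0 lower and the direction of the median held under both other normalizations, both other filters, robust dispersions, limma-voom and thinning. Between 21 and 27 Nduf genes were then called higher and 0 lower. DESeq2 called 34 and 0, within 1.5 times, but 1135 genes higher and 1024 lower over all genes, against 676 and 547. At an adjusted p under 0.10, 36 Nduf genes were higher and 1 lower, Ndufaf7, with 1250 and 1126 over all genes. Leaving out 1 library gave 0 to 36 Nduf genes higher, 75 to 941 of all genes higher and 53 to 730 lower. The median log2 change of the Nduf genes was then 0.37 to 0.54. The replicate numbers did not pair the samples (correlations of deviations from the group means -0.038, 0.092 and -0.096 for numbers 1 to 3). With a replicate block 5 Nduf genes were higher, and 226 and 169 of all genes higher and lower. Signs turned only for genes that were not called: Ndufa4l2 without the library labelled Hsp20 KO replicate 3 (-0.082), and Ndufaf2 without that library (-0.012), WT replicate 1 (-0.0027) or WT replicate 3 (-0.035), with a highest value of 0.14 without WT replicate 2. The causes were not tested. The smallest library, with 14078936 counts, held the smallest count of the Nduf genes, 67 for Ndufaf6. Its part in the lack of calls among the assembly factors was not tested.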
